A study of Mus musculus with 12 samples.

Results

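The 8 genes described here encode the lysyl oxidases (Lox, Loxl1, Loxl2, Loxl3 and Loxl4) and the procollagen lysyl hydroxylases (Plod1, Plod2 and Plod3), the enzymes that prepare and form the cross-links of collagen and elastin. The members are the genes of these families, and all 8 were among the 17097 genes measured. Each was read on 12 arrays, from 4 fibroblast populations of 3 female littermates aged 2 days, with 1 array per population and animal. All cells came from skin whose subdermis had been removed, and all were sorted as carrying Pdgfra and CD34 and lacking CD45, CD117, CD31 and EpCam. The CD26+ papillary cells lacked surface Dlk1 and Sca1, the Dlk1+ reticular cells lacked CD26 and Sca1, and the Dlk1+ Sca1+ and Dlk1- Sca1+ cells, both labelled pre-adipogenic, lacked CD26. The animals received no treatment that the labels name, and the sources used here give neither strain nor genotype. RNA of 4500 cells per array was amplified over 21 cycles before labelling. Levels are log2 values from RMA (a background correction, normalization and summary of the probes of a probe set), so a difference of 1 is a doubling.

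Fibrillar collagens and elastin leave the cell as soluble precursors and become mechanically stable only when neighbouring molecules are joined by covalent bonds. Inside the endoplasmic reticulum the lysyl hydroxylases add a hydroxyl group to selected lysines of procollagen. Outside the cell the lysyl oxidases, which need copper, convert lysines and hydroxylysines to aldehydes that then react with each other, and the share of hydroxylated lysines sets which kind of bond forms. In skin the papillary dermis holds thin, loosely packed fibrils and the reticular dermis thick bundles.

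Of the 8 genes, 7 differed among the 4 populations (limma's moderated F-test, adjusted p from 8.2e-10 to 0.000875), against 35.7% of all genes. Loxl2 did not pass (adjusted p = 0.989). The pattern was one of reticular cells against papillary and Dlk1- Sca1+ cells, with the Dlk1+ Sca1+ cells near the reticular cells for some genes. Lox, Loxl1, Loxl3, Plod1 and Plod2 were higher in reticular than in both papillary and Dlk1- Sca1+ cells. Of these, Lox, Loxl1 and Plod1 were not called between reticular and Dlk1+ Sca1+ cells (limma's adjusted p = 0.324, 0.942 and 0.116). Loxl4 and Plod3 were lower in reticular cells than in each of the other 3 populations. Loxl3 had the widest span, 8.19-fold between reticular and Dlk1- Sca1+ cells.

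Reference promoters were at hand for 3 of the 8 genes, Loxl4, Plod1 and Plod3, and are shown because these genes stand for both directions of the pattern and because Plod3 starts head to head with a gene that followed it across the arrays. Each stretch is the 114 bases before the transcription start in RefSeq on GRCm38.p6, written 5′ to 3′ along the gene's strand. Capitals mark GGGCGG (the GC box, bound by Sp1) and ACGTG or GCGTG (core letters of hypoxia response elements), on either strand. The stretches lie at chr19:42612807-42612920 (minus strand) for Loxl4, chr4:147936777-147936890 (minus strand) for Plod1 and chr5:136986905-136987018 (plus strand) for Plod3.
Loxl4: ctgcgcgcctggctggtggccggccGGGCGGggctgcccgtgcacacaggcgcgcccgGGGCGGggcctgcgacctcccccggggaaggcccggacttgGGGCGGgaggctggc
Plod1: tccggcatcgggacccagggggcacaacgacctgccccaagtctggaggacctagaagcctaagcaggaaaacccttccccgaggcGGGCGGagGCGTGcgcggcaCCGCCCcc
Plod3: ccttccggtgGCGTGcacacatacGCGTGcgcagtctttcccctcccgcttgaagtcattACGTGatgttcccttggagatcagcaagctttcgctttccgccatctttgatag

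GGGCGG occurred 3 times before Loxl4 and 2 times before Plod1, and 26% of 32851 promoter windows of this length held at least 1 match. GCGTG occurred 2 times before Plod3 and 1 time before Plod1 (17.1% of windows), and ACGTG occurred 1 time before Plod3 (9.01% of windows). CCAAT (20.6% of windows) and ATAAAA (7.89%) had no match in the 3 stretches. These are letter matches and were not set against the expression values. The 114 bases before Plod3 are also the whole stretch between its start and that of Znhit1, which is read from the other strand.

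Among the genes behind the gates Dpp4, the gene of CD26, was at 10.18 to 10.97 in papillary arrays and at 6.10 to 6.53 in all others, and Dlk1 was at 12.82 to 13.04 in both Dlk1+ populations. In the populations sorted as lacking surface Dlk1 its transcript was lower but still well up the scale, at 11.18 to 11.54 in Dlk1- Sca1+ and 9.82 to 10.10 in papillary arrays. Epcam, sorted against, was at 8.62 in animal 1's array of Dlk1- Sca1+ cells and at 5.62 to 6.73 in the rest, and Pecam1, the gene of CD31, was at 6.94 to 8.74. Ly6a, the gene of Sca1, was not analysed here. The 9 fibroblast markers had mean levels of 11.1 to 11.3 in every array. Single markers moved both ways, with 3 higher and 1 lower in papillary than in reticular cells (13.9% and 13.6% of all genes). Pdgfrb was at a mean of 8.65 in papillary and 9.82 in reticular cells, and Thy1 at 11.56 and 10.72. Genes of other cell types were not evenly spread, although RMA gives no true 0 from which their absence could be read. The mean level of 7 pericyte and smooth muscle markers was 7.70 to 8.57 in reticular, 7.14 to 7.95 in Dlk1+ Sca1+, 6.88 to 7.19 in Dlk1- Sca1+ and 6.37 to 6.50 in papillary arrays. The mean of 8 skeletal muscle markers ran the same way, at 6.82 to 7.04, 6.40 to 6.51, 5.98 to 6.11 and 5.86 to 5.92. The mean of 4 measured adipocyte markers was 9.73 to 9.925 in Dlk1- Sca1+ and 9.26 to 9.50 in Dlk1+ Sca1+ arrays, against 7.58 to 7.71 in reticular and 5.93 to 6.42 in papillary arrays. Keratinocyte markers stood at a mean of 9.83 in animal 1's array of Dlk1- Sca1+ cells and at 6.37 to 7.96 in the other 11. The same array was highest for 4 melanocyte and Schwann cell markers (8.22, against at most 7.11 in the others) and for 4 mast cell markers (6.55, against 5.05 to 5.24). In bulk arrays fewer cells of a type and less RNA per cell cannot be told apart, and the part of these markers in the results below was not tested, except where values without an array are given.

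**Figure D1:**
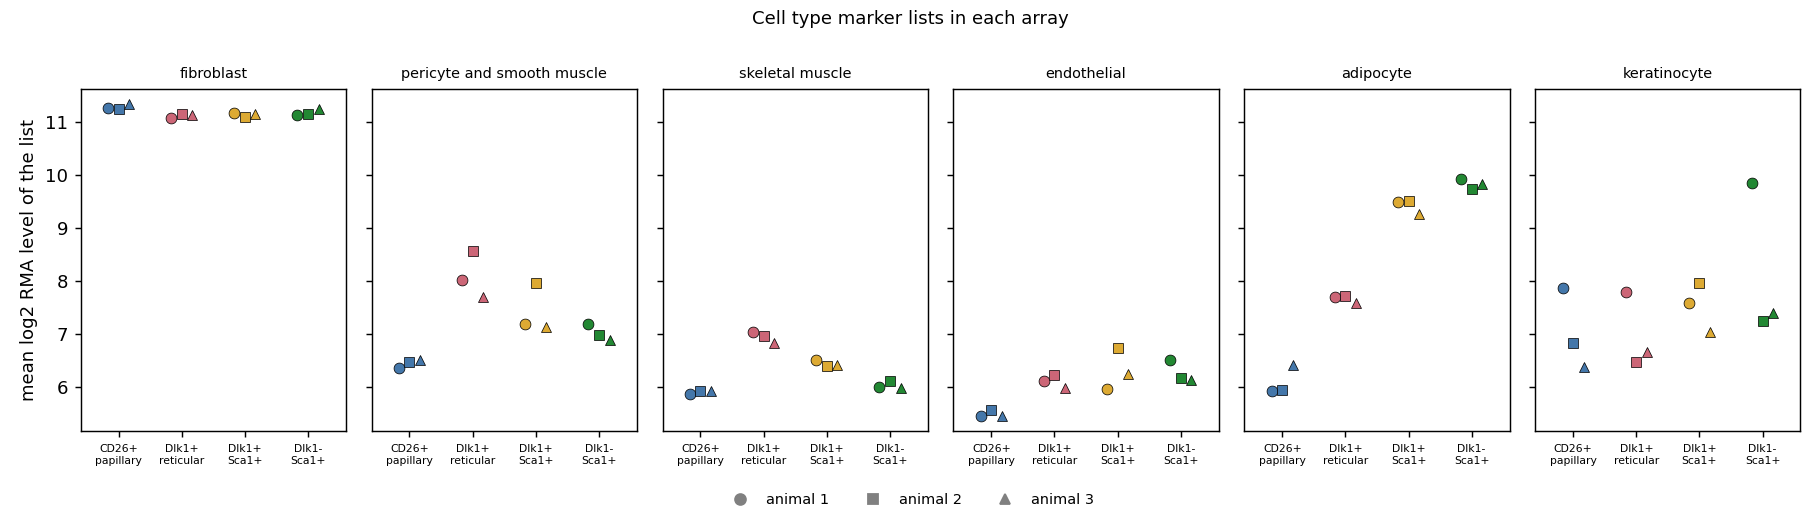
Mean log2 RMA level (vertical axis) of 6 marker lists in each array, by population (horizontal axis); symbols show the animal. The mean of the fibroblast markers is level across all arrays, though single markers differ. The mean of the skeletal muscle markers in every reticular array lies above that of all other arrays. The keratinocyte markers of animal 1 stand at 9.83 in Dlk1- Sca1+ cells.

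Lox, the founding lysyl oxidase, was highest in the cells sorted for Dlk1. Its level was 11.73, 11.79 and 11.64 in the reticular arrays of animals 1, 2 and 3 and 11.88, 11.91 and 11.93 in the Dlk1+ Sca1+ arrays. It was 11.13, 11.39 and 11.23 in Dlk1- Sca1+ cells and 11.09, 10.87 and 10.77 in papillary cells. No value of any population overlapped with those of another. Papillary cells were lower than each of the other 3 populations, which was the case for 7.29% of all genes, and the difference from Dlk1+ Sca1+ cells was -0.997 ± 0.094 (SE, n = 3 per population), or 1.995-fold (adjusted p = 2.93e-06). Dlk1- Sca1+ cells were below reticular cells by -0.47 ± 0.094 (adjusted p = 0.00335) and below Dlk1+ Sca1+ cells by -0.66 ± 0.094 (adjusted p = 0.000704). The neighbours at the top of the order, Dlk1+ Sca1+ and reticular cells, did not differ past the threshold (0.19, 95% interval -0.017 to 0.39, adjusted p = 0.324). The step between papillary and Dlk1- Sca1+ cells was -0.34 ± 0.094 (adjusted p = 0.0156) and was lost without papillary array 2 or 3 or without Dlk1- Sca1+ array 2 (adjusted p = 0.057, 0.0737 and 0.0696) and without animal 2 or 3 (0.227 and 0.184).

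Loxl1, the member most tied to elastic fibres, split the populations by the Dlk1 gate. It stood at 11.99, 12.21 and 11.98 in reticular arrays and at 12.11, 12.13 and 12.03 in Dlk1+ Sca1+ arrays. It stood at 11.71, 11.68 and 11.51 in papillary arrays and at 11.45, 11.64 and 11.52 in Dlk1- Sca1+ arrays. Every array of the first pair lay above every array of the second pair, while the populations inside each pair overlapped. Papillary cells were below reticular cells by -0.43 ± 0.088 (1.34-fold, adjusted p = 0.00235) and below Dlk1+ Sca1+ cells by -0.46 ± 0.088 (adjusted p = 0.00139). Dlk1- Sca1+ cells were below reticular cells by -0.52 ± 0.088 (adjusted p = 0.00101) and below Dlk1+ Sca1+ cells by -0.55 ± 0.088 (adjusted p = 0.00161). The difference between papillary and Dlk1- Sca1+ cells was 0.097, with an interval of -0.094 to 0.29, and that between the Dlk1+ populations was 0.03, with an interval of -0.16 to 0.22.

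Loxl2, which also acts on the collagen of basement membranes, was the member that did not separate the populations. Its means were 9.79 ± 0.11 (SD, n = 3) in papillary, 9.82 ± 0.30 in reticular, 9.84 ± 0.047 for the Dlk1+ Sca1+ gate and 9.84 ± 0.14 for the Dlk1- Sca1+ gate. The reticular arrays alone, at 9.79, 10.14 and 9.54, covered the whole range of the gene. All 6 differences lay between -0.057 and 0.02, and their 95% intervals reached at most -0.34 and 0.30, so that larger shifts than these are outside the intervals at this number of arrays.

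Loxl3, a lysyl oxidase with scavenger receptor domains, differed in all 6 comparisons. It was at 9.58, 9.83 and 9.69 in reticular arrays, at 9.47, 8.98 and 9.14 in Dlk1+ Sca1+ arrays, at 7.43, 7.41 and 7.35 in papillary arrays and at 6.70, 6.62 and 6.68 in Dlk1- Sca1+ arrays. The 4 ranges did not overlap. Its mean stood above 89.7% of genes in reticular cells and above 48.7% in Dlk1- Sca1+ cells. The lowest values of the gene were thus not at the bottom of the scale. However, Dpp4 read 6.10 to 6.53 in the reticular cells, which were sorted as lacking CD26. Whether Loxl3 stood above background in Dlk1- Sca1+ cells therefore cannot be told. The difference between Dlk1- Sca1+ and reticular cells was -3.03 ± 0.11 (8.19-fold, adjusted p = 5.29e-09). Dlk1- Sca1+ cells were lower than each of the other populations, as were 1.09% of all genes. Dlk1- Sca1+ and Dlk1+ Sca1+ cells, both sorted for Sca1, differed by -2.53 ± 0.11 (5.78-fold, adjusted p = 1.18e-07).

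Papillary cells had less Loxl3 than reticular cells, by -2.30 ± 0.11 (4.94-fold, adjusted p = 7.83e-09), and more than Dlk1- Sca1+ cells, by 0.73 ± 0.11 (1.66-fold, adjusted p = 0.000221). Each of these differences had the same sign in all 3 animals. The smallest step, Dlk1+ Sca1+ minus reticular, was -0.50 ± 0.11 (adjusted p = 0.0121), with -0.11, -0.85 and -0.55 in animals 1, 2 and 3. It was no longer called without reticular array 2 (adjusted p = 0.055) or without Dlk1+ Sca1+ array 2 or 3 (adjusted p = 0.0501 and 0.0552), or without animal 2 or 3 (0.243 and 0.23). The skeletal muscle markers were highest in the same population as Loxl3. By limma 5 of 8 were lower in Dlk1- Sca1+ than in reticular cells (8.8% of all genes) and none higher (0 also at an unadjusted p under 0.05). Between papillary and Dlk1- Sca1+ cells 0 of these 8 were called by limma (1 at an unadjusted p under 0.05), against 26.4% of all genes. Of the 7 pericyte and smooth muscle markers, 3 were lower in Dlk1- Sca1+ than in reticular cells (8.8% of all genes). In papillary against Dlk1- Sca1+ cells 3 of them were lower and 1 was higher (13.3% and 13.1% of all genes). The part of either list in the Loxl3 values was not tested.

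Loxl4, whose product also carries scavenger receptor domains, ran the other way. It was at 9.01, 9.08 and 9.57 in reticular arrays, below all other arrays, and at 10.29, 10.23 and 10.06 in papillary arrays, above all others. Dlk1+ Sca1+ arrays, at 9.64, 9.91 and 9.95, and Dlk1- Sca1+ arrays, at 9.68, 9.95 and 9.95, lay between and overlapped. Papillary cells exceeded reticular cells by 0.97 ± 0.14 (1.96-fold, adjusted p = 0.000182). Reticular cells were lower than each of the other populations, as were 1.06% of all genes. The step from reticular to Dlk1- Sca1+ cells was 0.64 ± 0.14 (adjusted p = 0.00697) and was lost without animal 2 (adjusted p = 0.16).

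The step of Loxl4 from reticular to Dlk1+ Sca1+ cells was 0.61 ± 0.14 (adjusted p = 0.018) and was lost without reticular array 1 or 2 (adjusted p = 0.0748 for both) and without Dlk1+ Sca1+ array 2 or 3 (adjusted p = 0.0639 and 0.0804), or without animal 1 or 2 (0.0553 and 0.277). Papillary cells stood above Dlk1+ Sca1+ cells by 0.36 ± 0.14 (adjusted p = 0.0843) and above Dlk1- Sca1+ cells by 0.33 ± 0.14 (adjusted p = 0.115), both short of the threshold. Both differences were called once reticular array 3 was left out (adjusted p = 0.026 and 0.04), the one that stood apart from the other reticular arrays at 9.57. With animal 3 left out the first of them was called as well (adjusted p = 0.0338).

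**Figure D2:**
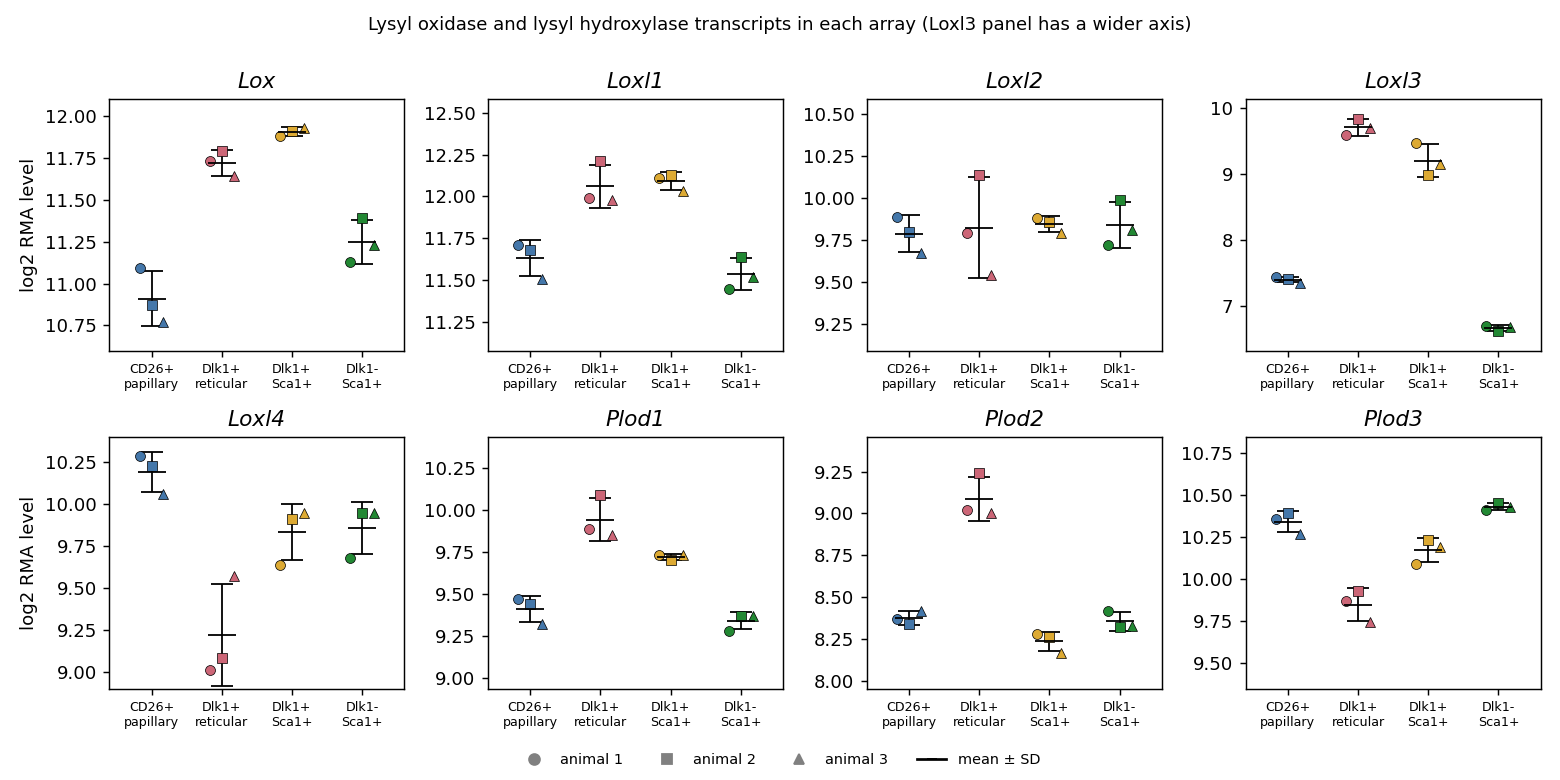
Log2 RMA level (vertical axis) of the 8 genes in each of the 12 arrays, by population (horizontal axis); symbols show the animal and black bars the mean ± SD of 3 arrays. Loxl3 spans 6.62 to 9.83, Loxl1 splits by the Dlk1 gate, Plod2 is high in reticular arrays, and Loxl4 and Plod3 are lowest there.

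Among the hydroxylases, Plod1, whose product mainly modifies the helical part of collagen, followed the order of Loxl3 at the top. It was at 9.89, 10.09 and 9.85 in reticular arrays, 9.73, 9.70 and 9.73 in Dlk1+ Sca1+ arrays, 9.47, 9.44 and 9.32 in papillary arrays and 9.28, 9.37 and 9.37 in Dlk1- Sca1+ arrays. The last 2 populations overlapped and the others did not. Reticular cells were above papillary cells, the difference papillary minus reticular being -0.53 ± 0.079 (1.45-fold, adjusted p = 0.000182), and above Dlk1- Sca1+ cells, at -0.60 ± 0.079 (1.52-fold, adjusted p = 0.000136). The Dlk1+ Sca1+ cells took a middle place, at -0.22 from reticular cells (interval -0.39 to -0.053, adjusted p = 0.116). Papillary minus Dlk1+ Sca1+ was -0.31 ± 0.079 (adjusted p = 0.0089, or 0.136 without animal 3). Dlk1- Sca1+ minus Dlk1+ Sca1+ was -0.38 ± 0.079 (adjusted p = 0.00919), and it was lost when any animal was left out (adjusted p from 0.0658 to 0.124).

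Plod2, whose product acts on the short telopeptides at the ends of the collagen molecule, was highest in reticular cells. By its mean, the gene stood above 84% of genes there and above 73.6% to 75.5% in the other populations. Its level was 9.02, 9.24 and 9.00 in reticular arrays and 8.17 to 8.42 in all 9 other arrays. Like Loxl3, Plod2 was higher in reticular cells than in each of the other populations, a pattern shown by 1.85% of all genes. The difference was -0.71 ± 0.079 for papillary minus reticular (1.64-fold, adjusted p = 1.55e-05), -0.85 ± 0.079 for Dlk1+ Sca1+ (1.80-fold, adjusted p = 2.06e-05) and -0.73 ± 0.079 for Dlk1- Sca1+ cells (1.66-fold, adjusted p = 2.86e-05). These 3 calls held in each setting tried, with any array or any animal left out. Among the other 3 populations the differences were 0.14, 0.02 and 0.12, with intervals that together ran from -0.15 to 0.31.

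Plod3, whose product is a hydroxylase and also a glycosyltransferase for collagen lysines, was lowest in reticular cells. It was at 9.87, 9.93 and 9.74 there, at 10.09, 10.23 and 10.19 in Dlk1+ Sca1+ arrays, at 10.36, 10.39 and 10.27 in papillary arrays and at 10.41, 10.45 and 10.43 in Dlk1- Sca1+ arrays. The 4 ranges did not overlap. Papillary minus reticular was 0.49 ± 0.074 (1.41-fold, adjusted p = 0.000205) and Dlk1- Sca1+ minus reticular was 0.58 ± 0.074 (1.498-fold, adjusted p = 0.000108). Both differences were positive in all 3 animals.

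The other steps of Plod3 were smaller. Dlk1+ Sca1+ minus reticular was 0.32 ± 0.074 (adjusted p = 0.0154) and was lost without reticular array 3 (adjusted p = 0.0677), without Dlk1+ Sca1+ array 2 or 3 (adjusted p = 0.0652 and 0.0626) and without any animal (adjusted p from 0.0616 to 0.287). Dlk1- Sca1+ minus Dlk1+ Sca1+ was 0.26 ± 0.074 (adjusted p = 0.052) and passed with the animal as a block (adjusted p = 0.0225) and without reticular array 2 or 3 (adjusted p = 0.0484 and 0.0439). It also passed with arrays centred (0.0397), quantile normalization repeated (0.0342), dim genes left out (0.0322), the mean of probe sets (0.0356) and an intensity trend (0.0212). Papillary minus Dlk1+ Sca1+ was 0.17, with an interval of 0.010 to 0.33 (adjusted p = 0.115). It passed when arrays were centred on their medians (0.20, adjusted p = 0.0387) and with quantile normalization repeated (0.20, adjusted p = 0.0426).

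Counted by comparison, papillary against reticular cells had 7 of 8 members called, 2 higher and 5 lower, where 27.5% of all genes were called (13.9% higher and 13.6% lower). Dlk1- Sca1+ against reticular cells had the same genes called in the same directions, where 18.2% of all genes were called (9.36% higher and 8.8% lower). These comparisons share the reticular arrays. Dlk1+ Sca1+ against reticular cells had 4 called (Loxl4 and Plod3 higher, Loxl3 and Plod2 lower), against 8.43% of all genes (4.06% higher and 4.37% lower). Papillary against Dlk1+ Sca1+ cells had Lox, Loxl1, Loxl3 and Plod1 lower and none higher by limma (2 higher at an unadjusted p under 0.05), against 28% of all genes (14.1% higher and 13.9% lower). Dlk1- Sca1+ against Dlk1+ Sca1+ cells had the same 4 genes lower and none higher (1 at an unadjusted p under 0.05), against 7.36% of all genes (3.23% higher and 4.13% lower). Papillary against Dlk1- Sca1+ cells had 2 called (Loxl3 higher, Lox lower), against 26.4% of all genes (13.1% higher and 13.3% lower). In that last comparison the share of members called is near that of all genes. With dim genes left out, all 8 members stayed among 9233 genes. Of these, 46.5% were called in papillary against reticular cells, 45.6% against Dlk1+ Sca1+ cells and 45.2% against Dlk1- Sca1+ cells. It was 32.4% in Dlk1- Sca1+ and 15.9% in Dlk1+ Sca1+ against reticular cells, and 14.7% between the Sca1+ populations. The share of members called is near this background in papillary against Dlk1+ Sca1+ cells and below it in papillary against Dlk1- Sca1+ cells.

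All 28 called differences had the same sign in all 3 animals and no overlap between the arrays, and their folds ran from 1.24 to 8.19. The calls were made from these same arrays, so neither trait is separate support for them. Of the 20 differences that were not called, 9 also had no overlap. Arrays did not overlap for 7 members in papillary against reticular cells (37.6% of all genes), for 7 in papillary against Dlk1+ Sca1+ cells (40.2%) and for 4 in papillary against Dlk1- Sca1+ cells (37.9%). They did not overlap for 6 members in Dlk1+ Sca1+ against reticular cells (21.6%), for 7 in Dlk1- Sca1+ against reticular cells (29.1%) and for 6 in Dlk1- Sca1+ against Dlk1+ Sca1+ cells (21.9%). The reticular array of animal 2 held the highest reticular value of 7 of the 8 members and had the highest array median, 6.34 against 6.21 to 6.27 in the others. Centring the arrays on their medians changed the call of Plod3 in papillary and in Dlk1- Sca1+ against Dlk1+ Sca1+ cells, and of no other member. Leaving out the array of Dlk1- Sca1+ cells from animal 1, in which keratinocyte, melanocyte and mast cell markers were high, changed no member's call.

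**Figure D3:**
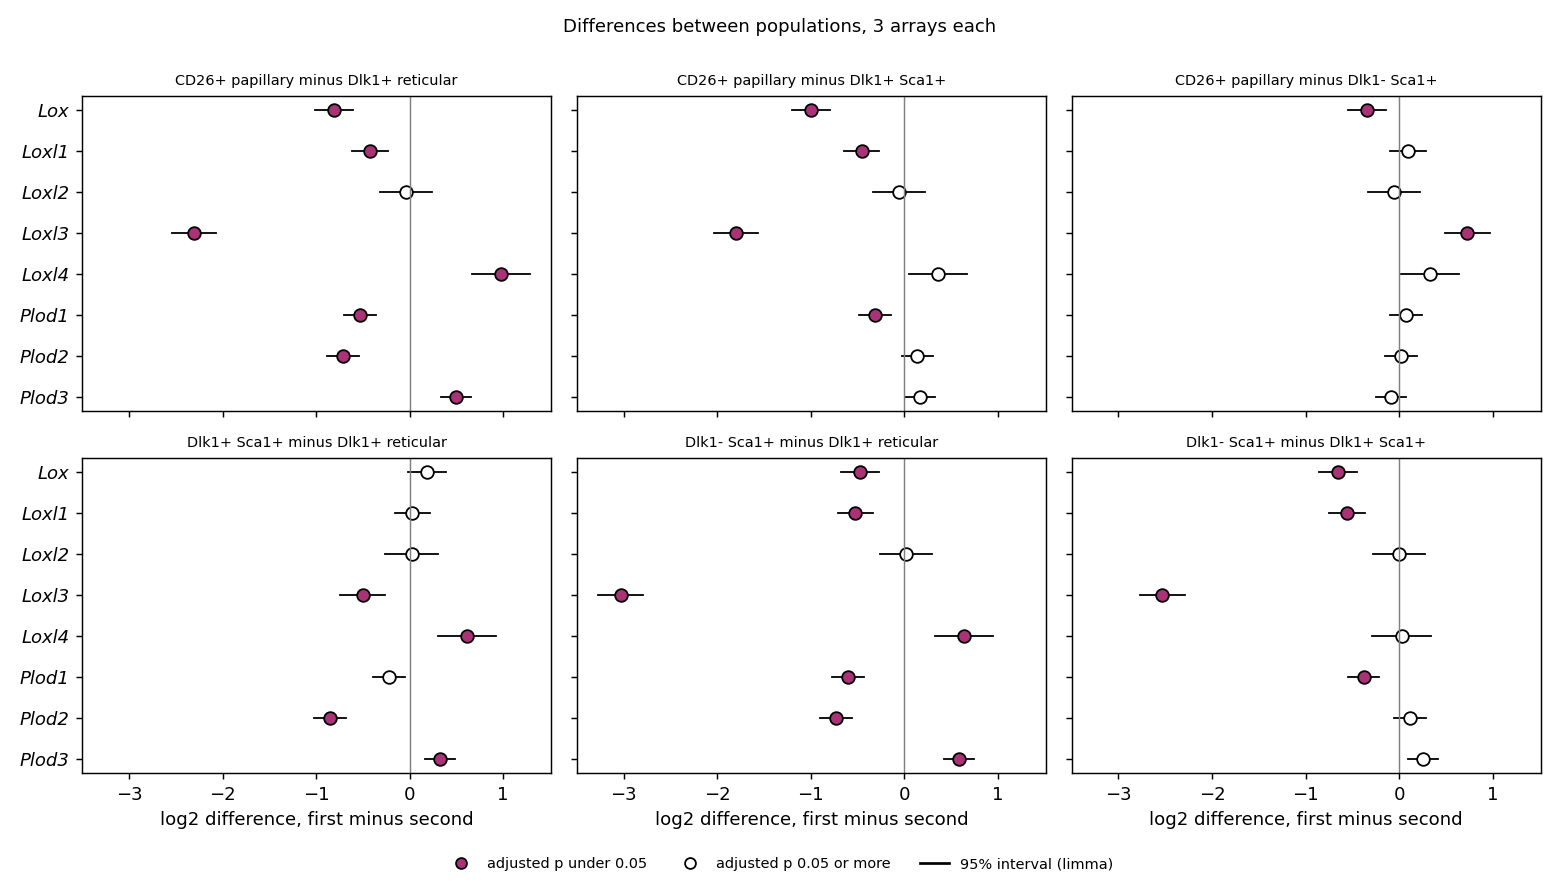
Log2 difference between 2 populations (horizontal axis, first minus second) for each of the 8 genes (vertical axis) in the 6 population pairs, with 95% intervals from limma; filled points have an adjusted p under 0.05. Loxl3 lies farthest from 0, down to -3.03, and Loxl4 and Plod3 lie on the other side of 0 from Lox, Loxl1, Loxl3, Plod1 and Plod2 in papillary and Dlk1- Sca1+ against reticular cells.

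The 8 genes were covered by 14 probe sets, and 5 genes had more than 1. The second bright probe set of Lox gave -1.01 ± 0.11 for papillary minus reticular, beside -0.81 for the one used. That of Plod2 gave -1.02 ± 0.15 beside -0.71, that of Loxl1 gave -0.69 ± 0.083 beside -0.43, and that of Loxl4 gave 0.98 ± 0.14 beside 0.97. The dim probe set of Lox, with a mean of 4.27 near the low end of the scale, gave -0.21 ± 0.11 and was not called (adjusted p = 0.187 over all probe sets). The dim probe set also gave no call for Dlk1- Sca1+ minus reticular (-0.11, adjusted p = 0.641). For Plod1 the second probe set, at a mean of 5.31, gave -0.37 ± 0.090 for papillary minus reticular (adjusted p = 0.00789) but -0.047 ± 0.090 for Dlk1- Sca1+ minus reticular (adjusted p = 0.836). Its value for papillary minus Dlk1- Sca1+ was -0.32 ± 0.090 (adjusted p = 0.0174), opposite in sign to the 0.07 of the probe set used, which was not called. Loxl2, Loxl3 and Plod3 rested on a single probe set each.

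**Figure D4:**
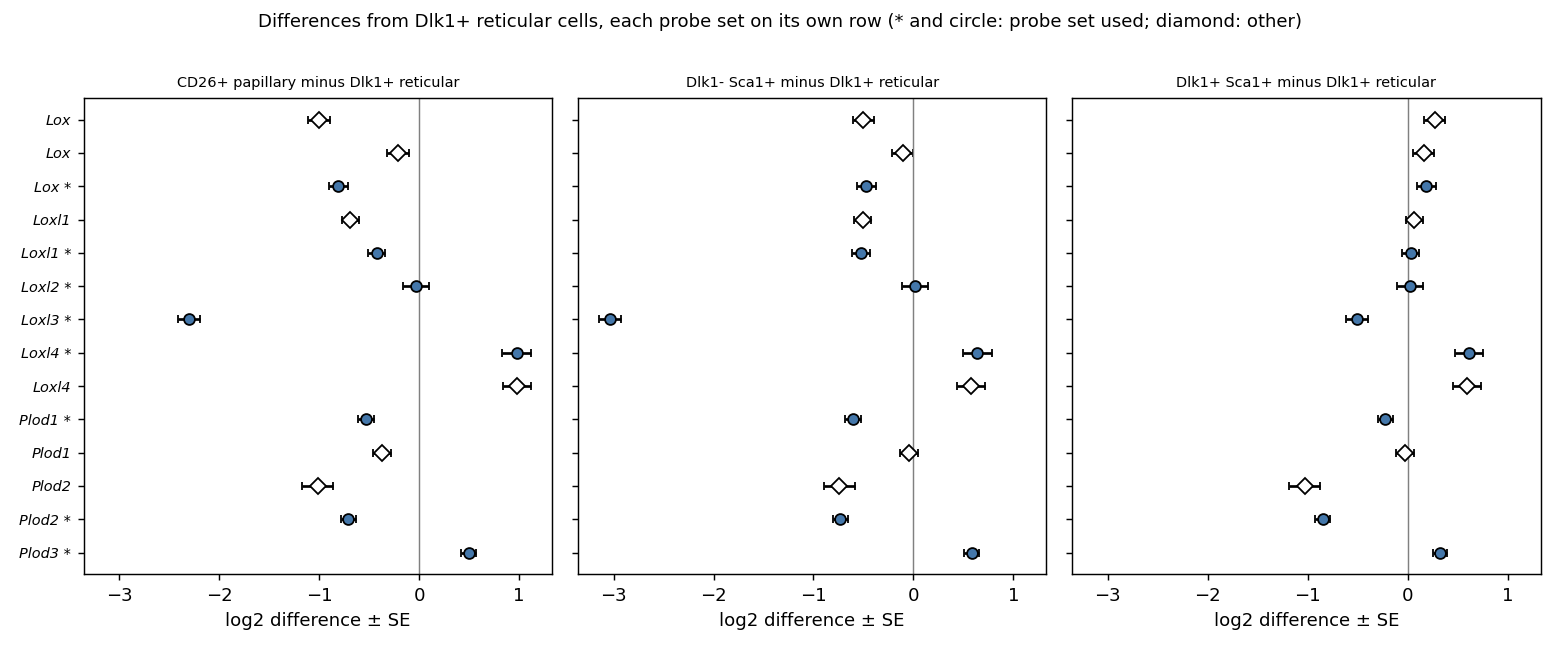
Log2 difference ± SE (horizontal axis) from reticular cells for each of the 14 probe sets of the 8 genes (vertical axis), with a panel for each of the other populations; circles and asterisks mark the probe set used. Probe sets of a gene lie on the same side of 0, and the dim ones of Lox and Plod1 lie closer to it than the bright ones.

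The genes most like each member were taken as the 3 with the highest Pearson r over the 12 arrays among 8549 genes of at least median level. The arrays share populations and animals, so these values describe a common pattern and carry no test. For Lox they were Thbs2, a matrix thrombospondin (r = 0.991), the growth factor gene Fgf7 (0.972) and Eln, the gene of elastin, itself a substrate of Lox (0.967). Eln was at a mean of 12.7 in both Dlk1+ populations, 12.1 in Dlk1- Sca1+ and 11.7 in papillary cells. For Loxl3 they were Spats2l (0.982), the growth factor gene Igf2 (0.980) and Fbln1, the gene of a fibulin (0.979).

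Genes of the Dlk1 region stood close to other members. For Loxl1 the genes were Meg3, a noncoding RNA from the imprinted Dlk1 region (0.963), Igf2 (0.957) and the kinase gene Mapk12 (0.945). For Plod1 they were Ssc5d (0.976), Rian, another noncoding RNA of that region (0.974), and Ip6k1 (0.973). For Plod2 the most like gene was Col8a1, a short-chain collagen gene (0.963), at 8.86 in reticular and 7.73 to 7.79 in the other populations. Nxf1 (0.940) and D10Wsu102e (0.937) came next.

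On the opposite side, Loxl4 was most like Tnfrsf23 (0.953) and Tnfrsf22 (0.941), decoy receptor genes similar in sequence and so not independent, and Tmsb10 (0.942), which binds actin. For Plod3 the 3 genes were Psma7, a proteasome subunit (0.967), the receptor gene Fgfr2 (0.965) and Znhit1, a zinc finger gene (0.960). Znhit1 is the head-to-head neighbour whose start lies 114 bases from that of Plod3 in the promoter shown above. Its means were 8.98 in reticular, 9.50 in Dlk1+ Sca1+, 9.87 in papillary and 10.1 in Dlk1- Sca1+ cells, the same order as Plod3. Dlk1- Sca1+ minus reticular was 1.14 ± 0.076 for Znhit1 (adjusted p = 4.89e-07), beside 0.58 for Plod3. Neither Loxl4 nor Plod1 had an opposite-strand start within 1000 bases upstream of its own start in the promoter table.

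The rest of the collagen pathway was read from 9 lists of 89 genes, of which 81 were measured. Shares of all genes called stand in brackets beside the counts, and those with dim genes left out are given above. Of 14 substrate collagens, 4 were lower and 1 was higher in papillary than in reticular cells (13.6% and 13.9% of all genes). The median difference of the collagens was -0.028, beside -0.0067 for all genes. Several of the collagens not called sat at the top of the scale, such as Col1a1 at 13.06 to 13.16 and Col3a1 at 12.79 to 12.98 over all arrays (the highest value in the table was 13.27), and others were dim, such as Col2a1 at 5.96 to 6.63. Col5a3 (-3.72 ± 0.10), Col11a1 (-2.44 ± 0.18) and Col14a1 (-1.95 ± 0.0998) were lower in papillary than in reticular cells, while Col1a2, a chain of the main skin collagen, was higher (0.73 ± 0.083). The probe set of Col1a2 read 10.07 to 10.16 in papillary and 9.27 to 9.52 in the other arrays, far below that of Col1a1. Against Dlk1- Sca1+ cells Col5a3 was lower in papillary cells by -4.24 ± 0.10.

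Prolyl hydroxylation, which stabilizes the collagen triple helix, was split in papillary against reticular cells. Of its 9 genes 2 were higher and 2 lower (13.9% and 13.6% of all genes). P4ha3, a catalytic subunit, was at 8.00 to 8.57 in reticular, 8.13 to 8.53 in Dlk1+ Sca1+, 6.78 to 7.15 in Dlk1- Sca1+ and 5.43 to 5.64 in papillary arrays. P3h2, a prolyl 3-hydroxylase, was at 7.39 to 7.74 in reticular arrays and at 5.65 to 6.40 in the other 9. P4ha2 was higher in papillary than in reticular cells by 0.66 ± 0.086. In Dlk1- Sca1+ against reticular cells 5 of the 9 were lower (8.8% of all genes) and none higher (0 also at an unadjusted p under 0.05). The median difference was -0.45. Against Dlk1+ Sca1+ cells 3 of the 9 were lower in Dlk1- Sca1+ cells (4.13% of all genes). With the animal as a block 7 were lower (983 of all 17097 genes). None was higher (0 also at an unadjusted p under 0.05).

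Of the genes for lysine glycosylation and collagen chaperones none was lower in papillary than in any other population by limma (0 also at an unadjusted p under 0.05). In papillary against Dlk1- Sca1+ cells 7 of 9 were higher (13.1% of all genes) and none lower by limma (8 higher and 0 lower at an unadjusted p under 0.05). The median difference was 0.37. In Dlk1- Sca1+ cells 4 of the 9 were also lower than in reticular cells (8.8% of all genes) and 4 lower than in Dlk1+ Sca1+ cells (4.13%). None was higher in either (0 also at an unadjusted p under 0.05). Creb3l1, a transcription factor of the collagen secretory route, led with 0.92 ± 0.078, followed by Fkbp9 (0.63 ± 0.076), a prolyl isomerase. Colgalt1, which adds galactose to hydroxylysine, was higher by 0.23 ± 0.080 (adjusted p = 0.0469), and the collagen chaperone gene Serpinh1 by 0.22 ± 0.068 (adjusted p = 0.0278). In papillary against reticular cells, where 5 members were lower, 3 of these 9 genes were higher (13.9% of all genes).

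Genes for propeptide processing and activation of lysyl oxidases were in part lower in papillary cells. Of 10 genes, 5 were lower in papillary than in reticular cells (13.6% of all genes) and 7 lower than in Dlk1+ Sca1+ cells (13.9%). None was higher in either (0 also at an unadjusted p under 0.05). Pcolce, an enhancer of procollagen cleavage, was lower than in reticular cells by -1.50 ± 0.085, and the convertase gene Pcsk5 by -1.60 ± 0.12. Bmp1, which cleaves the propeptides of both procollagen and Lox, was not called in any of the 6 comparisons, with differences from -0.23 to 0.073. With the animal as a block its difference between Dlk1- Sca1+ and reticular cells, -0.23, passed (adjusted p = 0.0499).

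Of 9 elastic fibre genes, partners of Lox and Loxl1, papillary cells had 4 lower and 1 higher than reticular cells (13.6% and 13.9% of all genes). With the animal as a block 2 of the 9 were higher (2904 of all 17097 genes). Mfap5, a microfibril gene, differed most, by -3.76 ± 0.17 (adjusted p = 4.87e-09), and Eln differed by -1.08 ± 0.099 (adjusted p = 2.99e-06). Fbln5, which tethers Loxl1 to elastin, was higher in Dlk1+ Sca1+ than in reticular cells by 0.40 ± 0.092 (adjusted p = 0.0163), and papillary and reticular cells differed by 0.083 (adjusted p = 0.617). Fmod, a fibril proteoglycan that binds collagen and Lox, followed the order of Lox, at 8.17 to 8.42 in Dlk1+ Sca1+, 7.85 to 8.21 in reticular, 7.11 to 7.50 in Dlk1- Sca1+ and 6.22 to 6.44 in papillary arrays. Of the 7 fibril surface proteoglycans 4 were lower in papillary than in reticular cells and 1 was higher (13.6% and 13.9% of all genes). Differences were larger for Prelp (-3.23 ± 0.18) and Kera (-2.44 ± 0.22) than for Fmod (-1.78 ± 0.13).

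Copper reaches the lysyl oxidases through the pump encoded by Atp7a, which was not called in any comparison (differences from -0.093 to 0.23). Of the 5 measured genes of the copper list 2 were lower and 1 was higher in papillary than in reticular cells (13.6% and 13.9% of all genes). Steap4, a metalloreductase gene, was lower by -2.77 ± 0.12 and Mt1, a metallothionein gene, by -2.73 ± 0.084, while Atox1 was higher by 0.36. Of 4 other cross-linking enzymes 1 was higher and 1 lower in papillary cells than in each other population (13.1% to 14.1% and 13.3% to 13.9% of all genes). Tgm2, a transglutaminase that joins glutamine to lysine, was higher in papillary cells by 1.39 ± 0.11 over reticular, 1.34 ± 0.11 over Dlk1+ Sca1+ and 1.76 ± 0.11 over Dlk1- Sca1+ cells. Pxdn was lower than in reticular cells (-0.55), and Tgm1 was lower than in Dlk1+ Sca1+ (-0.96) and Dlk1- Sca1+ cells (-0.64). The hypoxia list was included because Plod and Lox genes are known hypoxia targets. Of its 14 genes 4 were higher and 6 lower in papillary than in reticular cells (13.9% and 13.6% of all genes). Egln3, an oxygen sensor, was higher by 1.99 ± 0.11 and Vegfa, a growth factor of blood vessels, was lower by -1.27 ± 0.092.

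**Figure D5:**
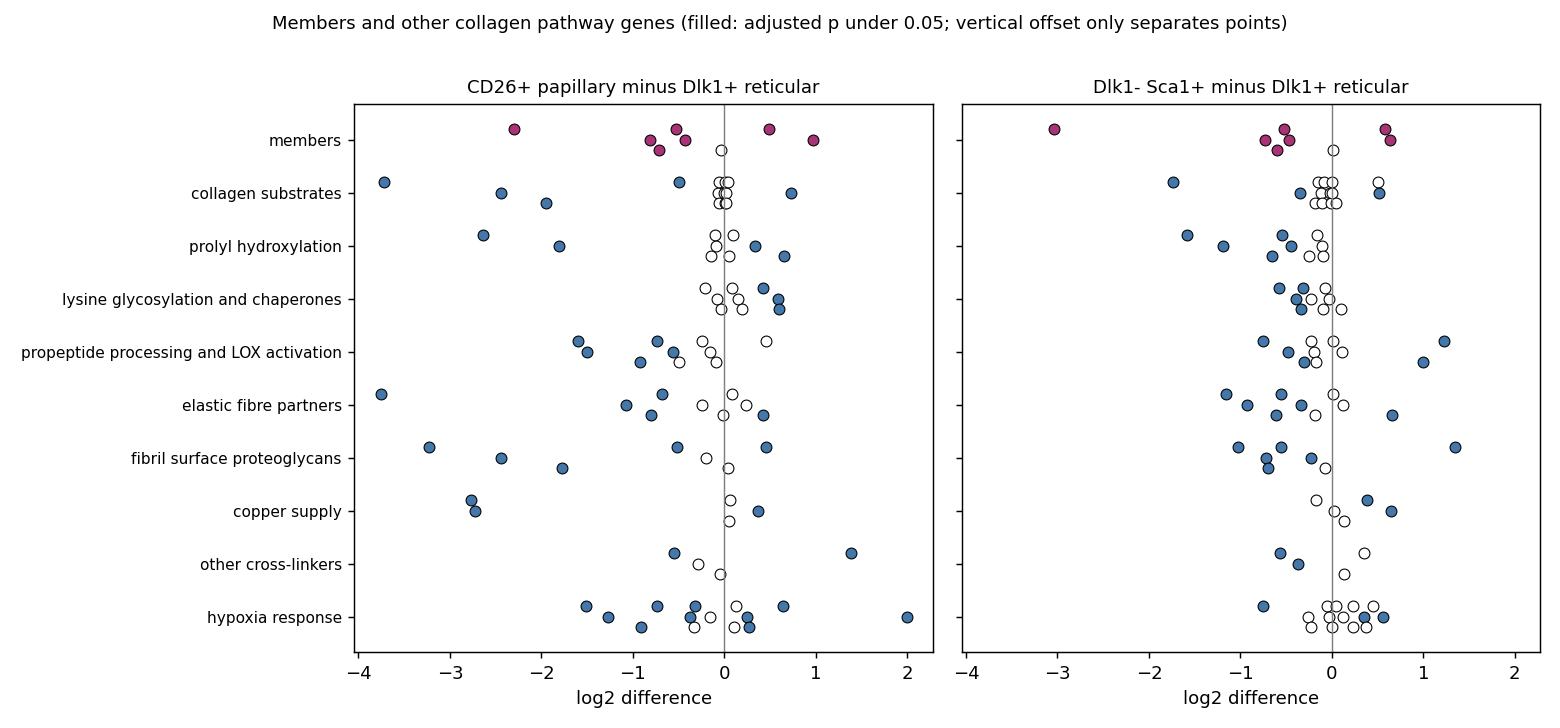
Log2 difference (horizontal axis) of the 8 members and of the genes of 9 collagen pathway lists (vertical axis), in papillary and in Dlk1- Sca1+ against reticular cells; filled points have an adjusted p under 0.05, and height within a row only separates points. Members lie on both sides of 0 in both panels, and of the 14 substrate collagens 9 were not called in papillary against reticular cells.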

How the data were processed

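The authors deposited log2 expression values for 12 arrays. Per the submitters' processing notes they used RMA and affy, whose versions are not given in the sources used here. The table held 45141 probe sets, of which 104 controls were left out. The platform annotation gave 28898 probe sets 1 gene symbol and 551 several, and 15588 stay unnamed here. For each of 17097 genes the probe set with the highest mean was used, with no filter on dim genes. Lists held 8 genes without such a probe set (P4ha1, Fkbp10, Fkbp14, Adamts2, Adamts14, Efemp2, Fbn1 and Mt2), which were not analysed here.

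A model with 1 mean for each population was fitted to the 12 arrays together, using limma 3.58.1 under R 4.3.3 (8 residual and 4.475 prior degrees of freedom), contrasted in 6 pairs. Tests were two-sided, adjusted by Benjamini-Hochberg over all 17097 genes within a contrast, and called at an adjusted p under 0.05; the model was tested on simulated data. Intervals are limma's 95% intervals. For arrays, their number, 3 per population, limits the precision.

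Per the labels the cells came from 3 littermates and arrays carry replicate numbers; a shared number was read as a shared animal, which no label states. After subtracting population means, such arrays correlated with a mean r of 0.266 (0.086 to 0.432 over 18 pairs, across genes, which are not independent replicates). Arrays of other populations with a different number had a mean r of -0.13 (-0.47 to 0.20 over 36 pairs). Because of the subtraction these values are tied to those of the shared numbers. A fit with the animal as a block was therefore run beside the main one.

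Members and lists were chosen with earlier results of these data known. Genes named are all 8 members, some of the up to 4 called genes with the largest difference per list and comparison, 8 genes that act directly with a member, and the 3 genes most like each member. Promoter sequences are RefSeq's on GRCm38.p6.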

Additional observations from a re-analysis of the deposited data

How the results depend on the processing

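Each result was recomputed with the animal as a block, arrays centred, quantile normalization repeated, dim genes left out (all 8 members stayed among 9233 genes), the mean or the most variable probe set per gene, an intensity trend, only the 6 arrays compared, each animal or array left out, and, chosen after seeing the data, all probe sets fitted together. Of the 28 called differences, 21 stayed called in the same direction in all 24 settings and none reversed. Members called for Dlk1+ Sca1+ against reticular cells fell from 4 to 2 with only the 6 arrays compared (6.66% of all genes). With 1 animal or array left out, this count was 1 to 4 (2.91% to 8.79% of all genes). The other counts follow with the share of all genes called in brackets. Papillary cells had 7 to 7 against reticular cells (19% to 27.8%) and 4 to 5 against Dlk1+ Sca1+ cells (20.1% to 28.5%). Against Dlk1- Sca1+ cells they had 1 to 3 (18.2% to 26.8%). Dlk1- Sca1+ cells had 6 to 7 against reticular cells (9.83% to 18.2%) and 3 to 5 against Dlk1+ Sca1+ cells (3.11% to 7.64%). The F-test gave 6 to 7, without a share of all genes in these settings. With only the 6 arrays compared, Lox in papillary against Dlk1- Sca1+ cells had an adjusted p = 0.0524, Loxl3 and Plod3 in Dlk1+ Sca1+ against reticular cells had 0.0551 and 0.0707, and Loxl4 in papillary against Dlk1+ Sca1+ and Dlk1- Sca1+ cells had 0.0316 and 0.0481. With the mean of probe sets, Plod1 in Dlk1- Sca1+ against Dlk1+ Sca1+ cells had 0.145. The replicate block, the pairing by animal, changed 1 member's call, that of Plod3 in Dlk1- Sca1+ against Dlk1+ Sca1+ cells (adjusted p = 0.0225), and left the counts of the other comparisons at 7, 4, 2, 4 and 7. With the block, 33.7% of all genes were called in papillary against reticular, 33.8% against Dlk1+ Sca1+ and 32.1% against Dlk1- Sca1+ cells. It was 12.5% for Dlk1+ Sca1+ and 24% for Dlk1- Sca1+ against reticular cells, and 11.1% between the Sca1+ populations. The causes were not tested.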
